A study of Mus musculus with 56 samples.

Results

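The genes described here are 9 mouse genes known as targets of WNT signalling in the liver cells around the central vein, namely Glul, Axin2, Lgr5, Tbx3, Rnf43, Znrf3, Oat, Rhbg and Sp5. They were taken by symbol from a gene table of 25415 entries, of which 25350 could be tested, and all 9 were tested. The livers came from 56 C57BL/6J female mice aged 9 weeks, housed under equal spans of light and dark. After 7 days of free feeding, food was offered for 7 days only by day (daytime-restricted feeding, DRF) or only by night (nighttime-restricted feeding, NRF, the reference regimen). Collection times, counted in hours from lights on as zeitgeber time (ZT), were 0, 4, 8, 12, 16, 20 and 24, and 4 livers were taken at each time in either regimen, giving 14 groups and 28 libraries for DRF and for NRF. The extraction protocol describes ribosomal depletion and strand-specific sequencing, whereas the molecule label reads polyA RNA, and counts were recovered from the deposited values.

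The liver lobule is zoned between the portal tracts, where blood enters, and the central vein, where it leaves. Endothelial cells of the central vein secrete WNT ligands and R-spondins, which stabilise β-catenin in the neighbouring hepatocytes and let TCF/LEF factors switch on the pericentral programme. Ammonia that escapes the periportal urea cycle is captured there by glutamine synthetase. In whole liver, fewer cells of a type and less RNA per cell cannot be told apart.

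Values below are scaled counts, which are recovered counts divided by a factor per library, so that 1 unit stood for between 304 and 723 recovered counts. Libraries held between 304174158 and 682373503 recovered counts, a number that is not a read depth. Mean correlation of a library with the other 3 of its group, across genes, lay between 0.966 and 0.988, and NRF ZT16 replicate 3 was the lowest. The 5 hepatocyte markers that could be tested summed to between 77788 and 135915 scaled counts per library, whereas the 3 listed markers of pancreas, gut and gallbladder summed to between 2.36 and 6.30. The 6 markers of central vein endothelium, among them Rspo3, Wnt9b and Wnt2, summed to between 35.3 and 57.3 under DRF and between 33.0 and 56.7 under NRF. No sequencing batch is given by the labels.

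On GRCm38, Glul (ENSMUSG00000026473) lies at chr1:153899944-153909723, Axin2 (ENSMUSG00000000142) at chr11:108920349-108950783 and Lgr5 (ENSMUSG00000020140) at chr10:115450311-115587780. Tbx3 (ENSMUSG00000018604) lies at chr5:119670669-119684724, Rnf43 (ENSMUSG00000034177) at chr11:87662722-87735539 and Znrf3 (ENSMUSG00000041961) at chr11:5276324-5444847. Oat (ENSMUSG00000030934) lies at chr7:132557478-132576398, Rhbg (ENSMUSG00000104445) at chr3:88242874-88254709 and Sp5 (ENSMUSG00000075304) at chr2:70474923-70477729. All are annotated as protein-coding, and values cover their exons.

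Per kilobase of exon, mean levels over all libraries were ordered from Oat at 568 scaled counts and Glul at 102, through Rhbg at 13.2, Rnf43 at 3.53, Znrf3 at 2.87, Lgr5 at 2.41 and Tbx3 at 2.28, to Axin2 at 1.19 and Sp5 at 0.240. The enzymes thus stood far above the receptors, feedback regulators and transcription factors. Sp5 had as few as 79 recovered counts in a library, whereas no library held fewer than 1505 for any other member. Exons of Rhbg share 1190 bases with the protein-coding gene Gm38392 on the same strand, so its counts are uncertain. Glul, Axin2 and Tbx3 overlap short stretches of a gene on the opposite strand (116, 209 and 115 exon bases), and the 93 bases of Mir8114 lie within Glul on its own strand.

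TCF/LEF factors bind DNA at sites with the core TCAAAG, which was searched on both strands. RefSeq promoters (GRCm38.p6) were at hand for Glul, Axin2, Rnf43, Oat and Sp5, and not for Lgr5, Tbx3, Znrf3 and Rhbg. In the 250 bases before the start, the motif was present in Sp5 alone among these 5 genes, on the reverse strand, from 204 and from 104 bases before the start. It was present in 13.8% of all 32851 promoter windows of this length, and 1.37% held at least 2 matches. The window of Sp5 (chr2:70474673-70474922, plus strand) is shown for its matches, in capitals, and that of Axin2 (chr11:108920099-108920348, plus strand), a gene that varied with Sp5 between animals, for comparison.
Sp5: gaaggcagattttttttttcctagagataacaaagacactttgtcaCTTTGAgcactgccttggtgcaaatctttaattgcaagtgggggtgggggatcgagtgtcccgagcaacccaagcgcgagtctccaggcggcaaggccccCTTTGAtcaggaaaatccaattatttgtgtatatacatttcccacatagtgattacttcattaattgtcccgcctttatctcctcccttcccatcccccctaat
Axin2: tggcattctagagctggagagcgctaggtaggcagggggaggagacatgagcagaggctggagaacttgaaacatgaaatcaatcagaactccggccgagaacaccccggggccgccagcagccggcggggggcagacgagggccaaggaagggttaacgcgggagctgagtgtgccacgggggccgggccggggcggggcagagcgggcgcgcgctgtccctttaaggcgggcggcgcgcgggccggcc
These matches are a description of the letters, and an absent match says nothing about binding of the factor.

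To ask whether the members oscillated over the day, a 24-h cosine curve was fitted within each regimen. Under NRF, 7 of 9 members passed (Glul, Axin2, Lgr5, Tbx3, Rnf43, Znrf3 and Sp5), beside 38.4% of all genes tested. Under DRF, 6 members passed (Axin2, Tbx3, Rnf43, Znrf3, Oat and Sp5), beside 37.6% of all genes. Both tests were passed by 5 members, beside 22.0% of all genes. The rhythms of 6 members differed between the regimens (Glul, Tbx3, Rnf43, Znrf3, Oat and Sp5), beside 38.6% of all genes. In scaled counts, 8 of 9 members had their highest NRF group mean at ZT8, late in the light phase when NRF mice had no food, as did 17.2% of all genes. Rhbg was the exception, with its highest NRF mean at ZT20. Of the 8 members, only Sp5 led its next NRF mean by more than the larger of the SDs. Glul stood at 416 ± 88.7 (SD) at ZT8 and 389 ± 44.2 at ZT12, and Znrf3 at 30.3 ± 3.45 and 29.9 ± 4.16. Lgr5 stood at 34.1 ± 5.08 at ZT8 and 32.6 ± 7.16 at ZT24. Oat, which passed no rhythm test under NRF, stood at 1129 ± 232 at ZT8 and 1103 ± 232 at ZT24. Under DRF the highest means were spread from ZT16 for Rhbg through ZT20 for Tbx3, ZT24 for Lgr5, Znrf3 and Oat and ZT0 for Rnf43 to ZT4 for Glul, Axin2 and Sp5.

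**Figure D1:**
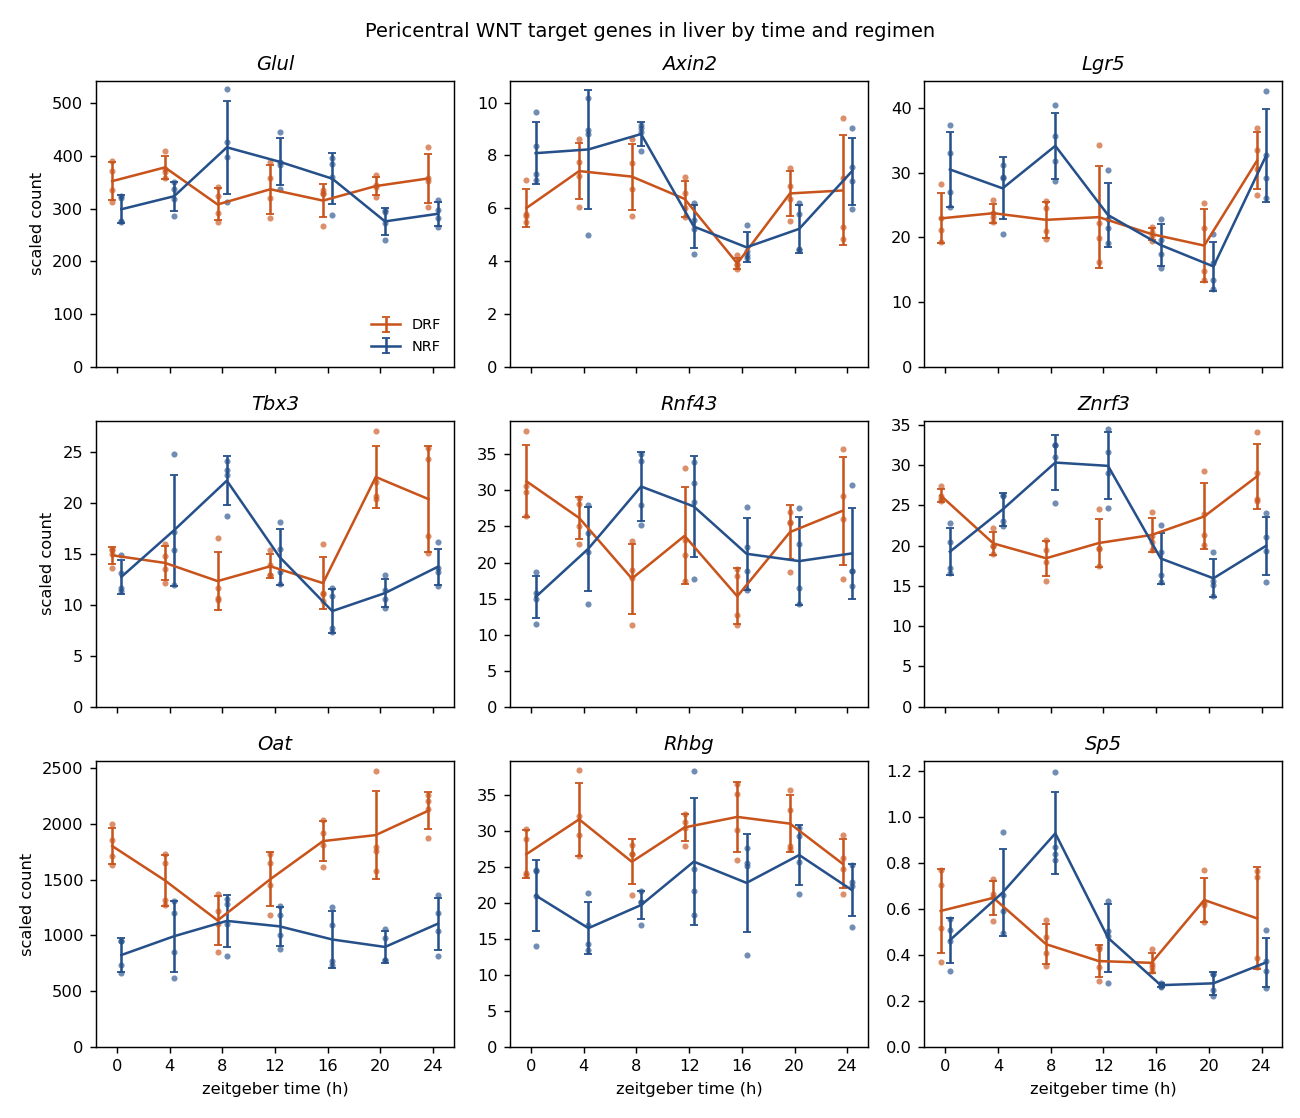
Scaled counts (y axis, from 0) of the 9 members against zeitgeber time in hours (x axis). Points are single livers, lines join the means of 4 livers with SD bars, orange is DRF and blue is NRF. The NRF means of all members but Rhbg are highest at ZT8, where 6 members were lower under DRF. Apart from Sp5, the lead of ZT8 over the next NRF mean is within the larger of the SDs.

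Tbx3, a T-box transcription factor, had scaled counts of 24.1, 23.2, 22.7 and 18.7 in the 4 NRF livers at ZT8 and of 10.7, 10.5, 16.5 and 11.6 in the DRF livers. At ZT20 the order was turned, with 22.0, 20.6, 20.4 and 27.0 under DRF and 10.6, 11.4, 12.9 and 9.68 under NRF. The regimens did not overlap at either time. Under DRF the mean was 0.556 times that under NRF at ZT8 (12.3 ± 2.84 against 22.2 ± 2.37, SD, n = 4; adjusted p = 0.000388) and 2.02 times at ZT20 (22.5 ± 3.08 against 11.1 ± 1.37; adjusted p = 3.3e-05). Tbx3 was also called higher under DRF at ZT24 (1.48-fold, adjusted p = 0.029), where livers overlapped, and not at ZT0 (1.17-fold, adjusted p = 0.474). Its DRF means were 20.4 ± 5.19 at ZT24 and 14.8 ± 0.83 at ZT0, the same time of day, and limma did not call them different (adjusted p = 0.18). The fitted peak of Tbx3 moved by 8.84 ± 1.13 h, from 6.53 ± 0.51 h (SE) in NRF livers to 21.7 ± 1.01 h in DRF livers. The rhythms differed (adjusted p = 6.84e-07), while the difference in daily mean, 0.08 ± 0.08 on the log2 scale, did not pass (adjusted p = 0.609). The DRF rhythm of Tbx3 missed the threshold without replicate 1 (adjusted p = 0.0659).

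Rnf43 and Znrf3 encode membrane ubiquitin ligases that remove WNT receptors from the cell surface and are themselves WNT targets. At ZT8, Znrf3 was at 25.3, 32.5, 32.6 and 31.0 scaled counts under NRF and at 18, 15.6, 19.5 and 20.7 under DRF, without overlap. At ZT20 the values were 15.7, 13.7, 15.2 and 19.3 under NRF and 20.1, 21.3, 29.3 and 23.9 under DRF. Znrf3 was called at 5 of the 7 times, as was Oat, and was lower under DRF at ZT8 (0.608-fold, adjusted p = 0.000106) and ZT12 (0.68-fold, adjusted p = 0.00206) and higher at ZT0 (1.36-fold), ZT20 (1.48-fold) and ZT24 (1.43-fold). Its peak moved by 10.2 ± 0.90 h, from 8.31 ± 0.45 h with night feeding to 22.1 ± 0.79 h with day feeding, the widest shift among members rhythmic in both regimens, and the rhythm difference had an adjusted p of 1.65e-10.

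Rnf43 was called at ZT0 and ZT8, in the same directions as Znrf3. Its ZT0 values were 29.8, 26.5, 30.5 and 38.3 under DRF and 14.9, 18.6, 15.8 and 11.5 under NRF, a 2.05-fold difference (adjusted p = 0.00154) without overlap. At ZT8 they were 23.0, 17.8, 19 and 11.3 under DRF and 34.1, 35.0, 25.1 and 27.9 under NRF (0.582-fold, adjusted p = 0.019). The fitted peaks, at 1.04 ± 1.23 h and 9.90 ± 1.07 h, were 8.86 ± 1.63 h apart, and the rhythms differed (adjusted p = 0.000349). Neither rhythm of Rnf43 passed once replicate 1 was left out (adjusted p = 0.0657 under DRF and 0.089 under NRF), and the DRF rhythm did not pass without replicate 4 either (adjusted p = 0.113).

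Sp5, a transcription factor of the SP family and a direct WNT target in many tissues, was the least abundant member. Its scaled counts at ZT8 were 1.19, 0.837, 0.869 and 0.813 under NRF and 0.552, 0.407, 0.477 and 0.349 under DRF. At ZT16 the NRF values lay within a narrow band of 0.278, 0.265, 0.260 and 0.269, and the mean at ZT8 was 3.46 times that at ZT16. Under DRF the ratio of its highest to lowest mean, between ZT4 and ZT16, was 1.77. The regimens did not overlap at ZT8 (0.481-fold, adjusted p = 0.00023) or ZT20 (2.31-fold, adjusted p = 0.00107). The fitted peak moved by 5.94 ± 1.16 h, from 6.75 ± 0.41 h under NRF to 0.81 ± 1.08 h under DRF, and the rhythms differed (adjusted p = 1.28e-06). Log2 differences understate changes of Sp5 because 1 was added to each scaled count, so ratios of means are given. Its DRF rhythm was no longer called without replicate 1 (adjusted p = 0.131) or replicate 4 (adjusted p = 0.185).

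Glul encodes glutamine synthetase, the classical marker of the hepatocytes next to the central vein. At ZT8 its scaled counts were 426, 528, 313 and 399 under NRF and 275, 323, 342 and 292 under DRF, and 2 of the DRF values lay above the lowest NRF value. The mean under DRF was 0.739 times that under NRF (adjusted p = 0.0108), and at the other 6 times Glul was not called. It was rhythmic under NRF (adjusted p = 0.000116), with a peak at 10.1 ± 0.70 h and a fitted ratio of peak to trough of 1.45, and it did not pass under DRF (adjusted p = 0.137), where that ratio was 1.14. The rhythms differed (adjusted p = 1.96e-05). Its plain mean over 28 livers each was nearly equal, at 342 ± 38.0 (SD) under DRF and 336 ± 64.5 under NRF. The rhythm-adjusted mean on the log2 scale, a different measure, differed by -0.01, DRF minus NRF, with a 95% interval from -0.09 to 0.08.

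**Figure D2:**
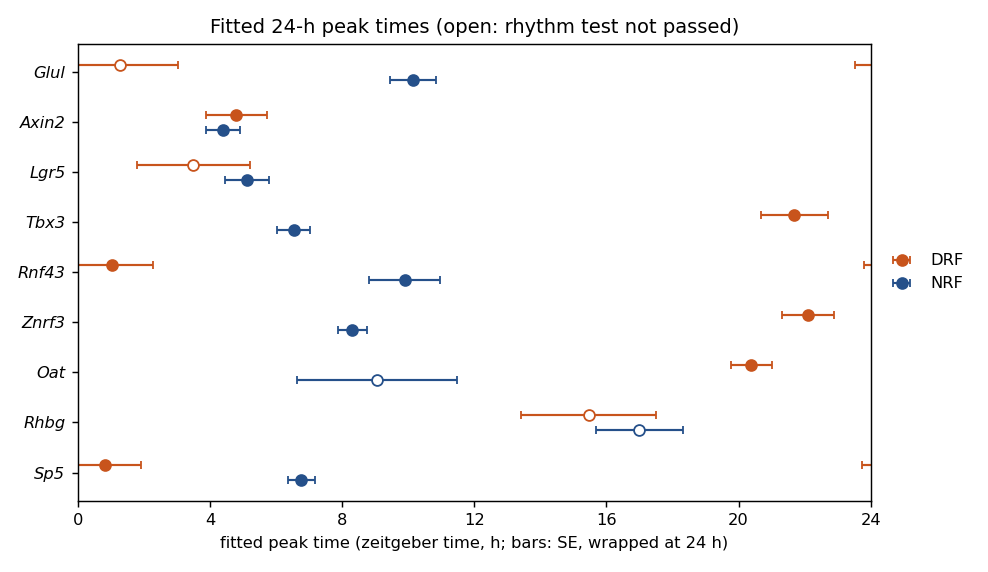
Fitted peak time in hours of zeitgeber time (x axis, wrapped at 24 h) of each member (y axis) under DRF (orange) and NRF (blue), with SE bars. Filled points passed the rhythm test. The peaks of Axin2 lie together, those of Tbx3, Rnf43 and Znrf3 lie over 8 h apart, and the open points of Glul, Lgr5, Oat and Rhbg mark fits that did not pass.

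Axin2, a scaffold of the β-catenin destruction complex and a widely used WNT reporter, peaked at nearly the same time in both regimens. In the 4 livers of each group it was lowest at ZT16 in both regimens, at 3.71, 4.22, 3.85 and 3.87 scaled counts under DRF and 4.11, 4.38, 5.35 and 4.25 under NRF. It was highest at ZT4 under DRF (7.73, 6.06, 7.20 and 8.63) and at ZT8 under NRF (9.15, 9.03, 8.18 and 8.87). The fitted peaks, at 4.79 ± 0.93 h and 4.39 ± 0.52 h, were 0.40 ± 1.06 h apart. Its rhythm passed in both regimens (adjusted p = 0.0119 and 1.75e-05), and the test of a difference did not (adjusted p = 0.315). Axin2 was not called by limma at any of the 7 times, where 1 had an unadjusted p under 0.05. Set 12 h apart, it was called at DRF ZT4 against NRF ZT16 (1.64-fold, adjusted p = 0.00529) and at DRF ZT16 against NRF ZT4 (0.475-fold, adjusted p = 5.69e-05). The DRF rhythm was just past the threshold and missed it by rank (adjusted p = 0.0516) and without replicate 3 (adjusted p = 0.0585).

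Of the 5 members rhythmic in both regimens, Tbx3, Rnf43, Znrf3 and Sp5 had peaks more than 4 h apart and Axin2 did not. Among all 5578 genes rhythmic in both regimens, 77.3% had such a shift and 52.4% a shift above 8 h.

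Lgr5, the receptor for R-spondins that marks pericentral hepatocytes, passed the rhythm test only under NRF. It had scaled counts of 35.6, 40.5, 28.7 and 31.8 at ZT8 and 13.3, 12.0, 20.5 and 16.1 at ZT20 under NRF, a 2.20-fold ratio of means. Under DRF the values were 19.8, 25.7, 24.5 and 20.9 at ZT8 and 13.4, 21.4, 14.8 and 25.3 at ZT20. The highest DRF mean was 31.8 ± 4.39 (SD) at ZT24, 1.70 times that at ZT20 and without overlap. At DRF ZT0, the same time of day, the mean was 22.9 ± 3.86, and limma did not call these 2 groups different (adjusted p = 0.167). The NRF rhythm passed (adjusted p = 0.000559) with a peak at 5.11 ± 0.67 h, and the DRF rhythm did not (adjusted p = 0.195). The difference in rhythm did not pass either (adjusted p = 0.107), although it did without replicate 3 (adjusted p = 0.0485). At ZT8 Lgr5 was lower under DRF (0.665-fold, adjusted p = 0.0354), and the livers did not overlap.

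Oat encodes ornithine aminotransferase, which links ornithine to glutamate in pericentral hepatocytes. It differed from the preceding members in its level. Over the 28 DRF livers it ranged from 852 to 2469 scaled counts with a median of 1719, and over the 28 NRF livers from 613 to 1361 with a median of 989. All but 1 of the DRF livers lay above the NRF median. The rhythm-adjusted mean was 0.71 ± 0.08 higher under DRF on the log2 scale (adjusted p = 3.52e-09), and the ratio of means was 1.69. The mean was higher under DRF and called at ZT0 (2.19-fold), ZT4 (1.5-fold), ZT16 (1.92-fold), ZT20 (2.12-fold) and ZT24 (1.92-fold). At ZT8 the values were 1215, 852, 1097 and 1368 under DRF and 1103, 1278, 1323 and 811 under NRF, and the means of 1133 and 1129 were the same within the spread (adjusted p = 0.992). Oat was rhythmic under DRF (adjusted p = 0.000131, peak at 20.4 ± 0.63 h, fitted ratio of peak to trough 1.69) and did not pass under NRF (adjusted p = 0.414). The rhythms differed (adjusted p = 0.000512). The counts of Oat were too high for whole numbers to be judged, and its values rest on the annotated exon length.

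Rhbg, an ammonium transporter of the pericentral hepatocyte membrane, was the other member with a higher daily mean under DRF, by 0.41 ± 0.07 on the log2 scale (adjusted p = 0.000103). Its 28 DRF livers ranged from 21.2 to 38.5 with a median of 28.5, and its 28 NRF livers from 12.8 to 38.4 with a median of 21.7. At ZT4 the values were 29.5, 26.5, 32.1 and 38.5 under DRF and 21.4, 17, 13.4 and 14.3 under NRF, a 1.92-fold difference (adjusted p = 0.00028) without overlap. No rhythm of Rhbg passed (adjusted p = 0.321 under DRF and 0.0986 under NRF). Without NRF ZT16 replicate 3, a setting chosen after seeing the data and in which Rhbg stood at 12.8 beside 25.2 to 27.7 in the other 3 livers, its NRF rhythm had an adjusted p of 0.00456.

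The rhythm-adjusted mean was thus higher under DRF for 2 of 9 members and lower for 0, beside 4.07% and 2.68% of all genes. None of the other 7 members had an unadjusted p under 0.05 by limma, and their differences lay between -0.12 for Lgr5 and 0.08 for Tbx3. The median over the 9 members was -0.01, and over all genes it was -0.002. For Lgr5 the 95% interval reached from -0.29 to 0.05, and for Tbx3 from -0.07 to 0.23.

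**Figure D3:**
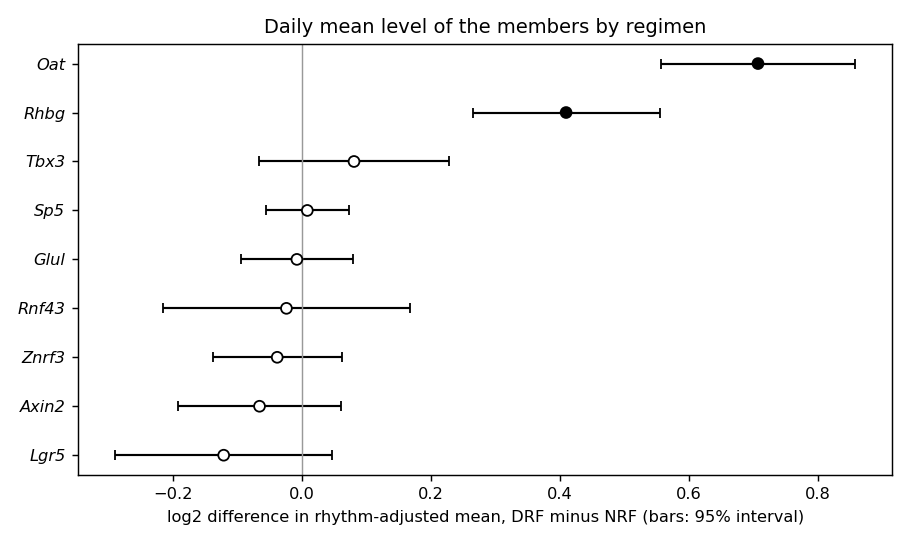
Log2 difference in rhythm-adjusted mean, DRF minus NRF (x axis), of the 9 members (y axis), with 95% intervals. Filled points passed the test. Oat at 0.71 and Rhbg at 0.41 stand to the right of 0, and the intervals of the other 7 members include 0.

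Compared time by time, DRF and NRF differed in 20 of 63 pairs of member and time, 13 higher and 7 lower under DRF, where 15.3% of all such pairs were called over all genes. In 17 of the 20 called pairs the livers of the regimens did not overlap. Pairs that pass with 4 livers a group seldom overlap, so this adds no separate support, and it was not counted over all genes. The calls were gathered at ZT8, with 6 members lower under DRF (Glul, Lgr5, Tbx3, Rnf43, Znrf3 and Sp5) beside 7.23% of all genes, and at ZT20, with 4 higher (Tbx3, Znrf3, Oat and Sp5) beside 7.66%. When DRF groups were set against NRF groups 12 h later or earlier, which match in hours since food was given but not in light, 16 of 54 pairs were called, beside 12.0% of all pairs. Among the 54 same-time pairs without ZT24, 17 were called, beside 15.5%. The mean absolute log2 difference was smaller 12 h apart than at the same time for 4 members, at 0.14 and 0.26 for Glul, 0.21 and 0.44 for Tbx3, 0.34 and 0.50 for Rnf43 and 0.19 and 0.44 for Znrf3. It was smaller at the same time for Axin2 (0.24 and 0.45), Lgr5 (0.26 and 0.43), Sp5 (0.18 and 0.21) and Rhbg (0.44 and 0.46). Both alignments use the same group means, so a gene higher under DRF in every pair has equal values in both. This was so for Oat (0.72 in both). Rhbg was higher under DRF at each same time, so its value could not have been smaller 12 h apart. The order of its values therefore says nothing about timing. These differences between alignments were not tested. Both alignments use the same libraries. Set 12 h apart, Oat was called in 5 of 6 pairs, each time higher under DRF, and Sp5 in 3.

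**Figure D4:**
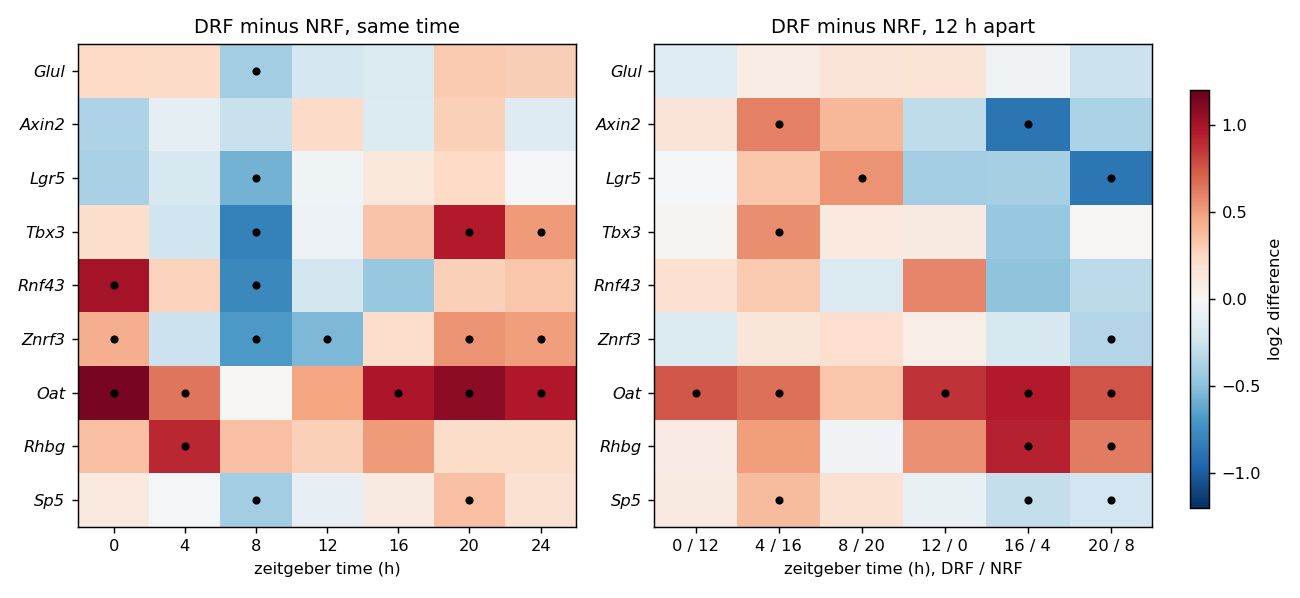
Log2 difference, DRF minus NRF, of each member (rows) at the same zeitgeber time (left) and 12 h apart (right, DRF time / NRF time in hours). Red is higher and blue lower under DRF, and dots mark adjusted p under 0.05. The blue column at ZT8 holds 6 dots, and the row of Oat is red in both panels apart from ZT8 at the same time.

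Fitted amplitudes were lower under DRF than under NRF for 8 of 9 members, as for 59.6% of all genes, and higher for Oat. On the log2 scale, differences in amplitude, DRF minus NRF, were -0.30 ± 0.13 (SE) for Lgr5, -0.21 ± 0.07 for Znrf3 and 0.23 ± 0.11 for Oat. For Glul the difference was -0.17 ± 0.06, for Tbx3 -0.19 ± 0.11 and for Axin2 -0.17 ± 0.10. Those of Rnf43, at -0.02 ± 0.13, and Rhbg, at -0.14 ± 0.11, were within the error of no difference or little beyond it. That of Sp5 depended on the value added before taking logs, at -0.17 ± 0.05 with 1 and -0.42 ± 0.11 with 0.1. No test of amplitude alone was run.

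Livers collected at ZT24 were compared with those at ZT0, the same time of day, as a check on the spread between days. By limma 0 of the 9 members differed in either regimen, beside 3.08% of all genes under DRF and 7.83% under NRF, and 2 members under DRF and 1 under NRF had an unadjusted p under 0.05. In the order of the 14 group means, neighbours seldom differed by more than the larger of their SDs. This was so for 0 of 13 neighbours for Glul, Lgr5, Tbx3, Rnf43 and Znrf3, 1 of 13 for Axin2 and Rhbg, and 2 of 13 for Oat and Sp5. Sorting places close means side by side, so these counts bear only on the exact order, and not on differences between groups far apart in it.

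To ask whether members varied together from animal to animal, each library's deviation from its group mean was correlated over 56 libraries, with permutation of libraries within groups and adjustment over 36 pairs. The adjusted p was below 0.05 for 9 pairs, and the share among pairs of all genes was not computed. Axin2 and Tbx3 had the closest relation, with r = 0.70 and Spearman rho = 0.63 (permutation p = 1e-05 for r, the smallest that 100000 permutations can give, and 2e-05 for rho; adjusted p = 0.00018 and 0.00036), and r was 0.65 without the 2 libraries farthest from the median of Axin2. Of all genes tested, 1 had a higher r to Axin2 than Tbx3 did, and 0 had a higher r to Tbx3 than Axin2 did. Tbx3 and Sp5 had r = 0.57 and rho = 0.56 (permutation p = 0.00027 and 0.00014, adjusted p = 0.00324 and 0.00168), and r = 0.53 without 2 libraries. Oat and Rhbg, the members with a higher mean under DRF, had r = 0.64 and rho = 0.66 (permutation p = 1e-05 for both, adjusted p = 0.00018 and 0.00036), and r = 0.64 without 2 libraries. Glul and Lgr5 had r = 0.49 and rho = 0.52 (permutation p = 0.00045 and 0.00023, adjusted p = 0.00405 and 0.00207), and r = 0.46 without 2 libraries. Within regimens, r was 0.73 under DRF and 0.68 under NRF for Axin2 and Tbx3, 0.45 and 0.69 for Tbx3 and Sp5, 0.55 and 0.67 for Oat and Rhbg, and 0.42 and 0.54 for Glul and Lgr5. The other pairs below 0.05 were Axin2 with Sp5 (r = 0.49), Rnf43 with Sp5 (0.43), Tbx3 (0.41) and Lgr5 (0.40), and Glul with Axin2 (0.36). Genes with a higher r to the first and to the second of a pair numbered 6 and 4 for Tbx3 and Sp5. They numbered 31 and 20 for Oat and Rhbg, 341 and 21 for Glul and Lgr5, and 41 and 57 for Axin2 and Sp5. For Rnf43 and Sp5 they were 32 and 153, for Tbx3 and Rnf43 166 and 47, and for Lgr5 and Rnf43 118 and 61. For Glul and Axin2 they were 1321 and 428. Rnf43 with Tbx3 and with Lgr5 had an adjusted p of 0.0865 for rho, and r of Rnf43 with Tbx3 was 0.08 under DRF and 0.69 under NRF. Znrf3 was in none of the 9 pairs.

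**Figure D5:**
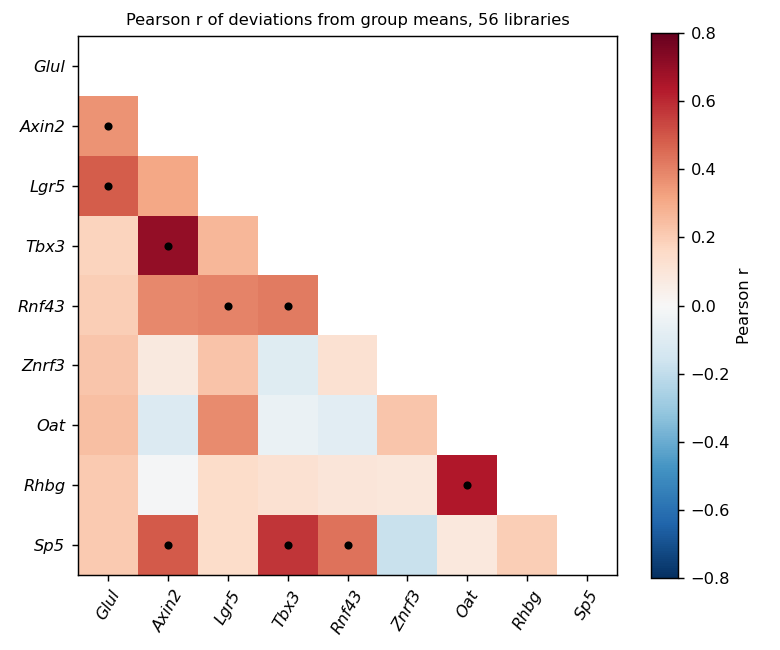
Pearson r between members (both axes) of the deviation of each library from its group mean, over 56 libraries. Red is positive, blue negative, and dots mark the 9 pairs with an adjusted permutation p under 0.05, with the deepest red for Axin2 and Tbx3 at 0.70.

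The genes whose deviations were most like those of Glul over the 56 libraries were Trir (r = 0.71), Bcar3 (0.70), Glyr1 (0.67), Cap1 (0.67) and Lcat (0.67), none of them a member. Lgr5, at 0.49, stood behind 341 genes.

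Other genes of the pathway were counted by role, from lists chosen with earlier results of these data known. Their rhythm counts stand beside 37.6% of all genes under DRF, 38.4% under NRF and 38.6% differing in rhythm, and with so few genes a list nothing particular is read from them. Of 9 WNT ligands and R-spondins, 6 were rhythmic under DRF, 4 under NRF and 5 differed in rhythm, and Wnt9b, a ligand of the central vein endothelium, was higher under DRF (1.75 ± 0.42 against 1.41 ± 0.25 scaled counts, SD, n = 28 each; adjusted p = 0.0103). Wnt5b (log2 difference 0.13 ± 0.07), Wnt4 (-0.10 ± 0.06) and Wnt2b (-0.02 ± 0.04) did not pass. Rspo3, the R-spondin of the central vein, was rhythmic in both regimens, peaking at 3.41 h with night feeding and at 22.6 h with day feeding, and its daily mean differed by 0.06 ± 0.04 on the log2 scale (adjusted p = 0.398). Of 12 receptors and co-receptors, 8 were rhythmic under DRF, 9 under NRF and 9 differed in rhythm. In both regimens 7 were rhythmic, beside 22.0% of all genes. Fzd4 (0.22 ± 0.04, adjusted p = 0.000334) and Ryk (0.12 ± 0.03, adjusted p = 0.00807) were higher under DRF, while Fzd7 (-0.11 ± 0.06) and Fzd8 (-0.14 ± 0.08) did not pass. Over all genes 4.07% were higher in daily mean, a share that also stands beside the call of Wnt9b among the ligands.

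Of 10 tested inhibitors and feedback genes, 6 were rhythmic under DRF, 3 under NRF and 6 differed in rhythm. By limma 0 of them differed in daily mean, beside 6.75% of all genes, with 1 at an unadjusted p under 0.05. Notum, a secreted enzyme that inactivates WNT ligands and is itself induced by WNT, stood at 15.0 ± 1.73 under DRF and 16.3 ± 3.67 under NRF (adjusted p = 0.109), Nkd2 was at -0.07 ± 0.04 on the log2 scale, and Frzb and Dkk2 were at 0.05 ± 0.06 and 0.02 ± 0.05. Of 19 intracellular members, 10 were rhythmic under DRF, 7 under NRF and 7 differed in rhythm. The shares over all genes were 37.6%, 38.4% and 38.6%, and nothing particular is read from the counts of either list. Btrc, which marks β-catenin for destruction, was lower under DRF (-0.13 ± 0.04, adjusted p = 0.0411), and Tcf7 (-0.17 ± 0.06), Apc (0.19 ± 0.07) and Pygo1 (0.10 ± 0.04) did not pass. Over all genes 2.68% were lower in daily mean. The median difference was 0.06 for the ligands, 0.04 for the receptors, -0.02 for the inhibitors and -0.03 for the intracellular genes.

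Among 8 other pericentral hepatocyte genes, 5 were rhythmic under DRF, 6 under NRF and 5 differed in rhythm, beside 37.6%, 38.4% and 38.6% of all genes. In daily mean 1 was higher under DRF, beside 4.07%. This was Lhpp, a phosphatase (0.38 ± 0.06, adjusted p = 7.41e-06), while Slc1a2 (0.11 ± 0.05), Gulo (-0.02 ± 0.04) and Cyp2e1 (-0.05 ± 0.05) did not pass. Among 12 periportal hepatocyte genes, 11 were higher under DRF and 1 lower, beside 4.07% and 2.68% of all genes, with a median of 0.29. This list too was chosen with earlier results of these data known. Of its genes, 10 were rhythmic under DRF, 10 under NRF and 7 differed in rhythm. Asl, an enzyme of the urea cycle (576 ± 149 against 401 ± 134 scaled counts, adjusted p = 7.7e-08), Hsd17b13 (0.27 ± 0.04, adjusted p = 2.24e-07) and Pck1, the enzyme that commits carbon to gluconeogenesis (0.56 ± 0.18, adjusted p = 0.0439), were higher, and the adhesion gene Cdh1 was lower (-0.49 ± 0.06, adjusted p = 6.16e-09). Oat and Rhbg were higher under DRF as were these 11 periportal genes, and no difference between the lists was tested.

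Markers of the other liver cells were compared in daily mean. By limma 0 of 6 sinusoidal endothelium, 0 of 5 Kupffer, 0 of 5 stellate and 0 of 5 cholangiocyte markers differed, beside 6.75% of all genes. At an unadjusted p under 0.05 stood 0, 0, 0 and 3 of them, beside 4992 of all 25350 genes. Of 6 central vein endothelium markers, 1 (Wnt9b) was higher under DRF, beside 4.07% of all genes. With so few markers a list, nothing is read from these counts about the cells present. The summed central vein endothelium markers had a median of 45.5 under DRF and 42.6 under NRF. Over all libraries, Kupffer markers summed to between 494 and 1009, stellate markers to between 551 and 823, and cholangiocyte markers to between 20.6 and 40.8. Of the 5 hepatocyte markers tested, Apoa1 and Serpina1a were lower under DRF (-0.33 ± 0.10 and -0.17 ± 0.04, adjusted p = 0.033 and 0.00161). Over all genes 2.68% were lower, and nothing is read from this count either. Alb (-0.07 ± 0.11, adjusted p = 0.773), Hnf4a (-0.01 ± 0.05, adjusted p = 0.961) and Tat (0.22 ± 0.10, adjusted p = 0.213) did not pass. Cela1, 1 of 3 tested genes of the pancreas, gut and gallbladder list, was lower under DRF, beside 2.68% of all genes. It stood at 2.07 ± 0.35 against 3.16 ± 0.71 scaled counts (adjusted p = 4.22e-07), and the other 2 did not pass. Their part in the values of the members was not tested.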

How the data were processed

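The authors deposited a gene table named TPM, whose values are treated as a score: multiplied by exon length, each value was a library factor times the natural log of 1 plus a scaled whole count. The submitters' processing notes name featureCounts 1.5.0-p3, mm10 and GRCm38.p6; the aligner is not given in the sources used here. The curve was fitted per library with GENCODE vM21 lengths. Of held-out values up to 10 counts, a median of 98.9% lay within 0.05 of a whole number, and 65 of 25415 genes were left out. Scaled counts were tested as log2(scaled count + 1) with limma 3.58.1 in R 4.3.3 (trend, 24-h cosine and sine or group means, Benjamini-Hochberg over 25350 genes, threshold 0.05). A filter on mean deposited value (0.1) removed 0 genes. Peak times have delta-method SEs. Fits were tested on simulated data. Members and lists were chosen with earlier results of these data known. Text names all 9 members, the 5 genes most like Glul and the 2 highest and 2 lowest of each list by limma t, apart from Mir8114 and Gm38392, named for overlap. Of the marker lists, only Rspo3, the 5 tested hepatocyte markers and the genes that passed are described, a choice made after their values were seen. Each liver came from a different mouse, and same-numbered livers were not alike (mean correlation of deviations 0.005), so numbers were not used as pairs. P-values rest on the spread between livers. Each liver gave a single library, so variation between animals and between libraries cannot be told apart. Transcript and circRNA tables were not used.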

Additional observations from a re-analysis of the deposited data

Results flagged for a closer look

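The 24-h rhythms of 6 members differed between DRF and NRF by limma's test of the difference. The adjusted p was 1.96e-05 for Glul, 6.84e-07 for Tbx3, 0.000349 for Rnf43, 1.65e-10 for Znrf3, 0.000512 for Oat and 1.28e-06 for Sp5, beside 38.6% of all genes.

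In 5 of 126 sets of 4 livers, 1 liver stood far from the other 3, where chance flags about 1 in 20 such sets. Glul at DRF ZT16 had a liver at 268 beside 327 to 336. Tbx3 at DRF ZT16 had one at 15.9 beside 10.3 to 11.2. Rnf43 at NRF ZT24 had one at 30.7 beside 16.7 to 18.9. Rhbg at NRF ZT16 had one at 12.8 beside 25.2 to 27.7. Sp5 at NRF ZT8 had one at 1.19 beside 0.813 to 0.869.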

How the results depend on the processing

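The number of members rhythmic under NRF, differing in rhythm or in daily mean, or called at the same time stayed within 1.5 times of the reported number under every alternative run. Of the counts that moved further, ZT24 against ZT0 gave 5 of 18 calls on the deposited values and 1 with a per-library trend on exon length removed, where 0 were reported, and 22 of 36 correlations passed on raw log2 values, which include the time of day, where 9 were reported. Leaving out 1 replicate number or library at a time gave 3 to 6 members rhythmic under DRF and 8 to 16 calls 12 h apart, the lowest of both without replicate 1. The 12 h count was 10 without replicate 4.

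Daily mean differences that did not pass also changed sign. On the deposited values they were 0.00870 for Glul, 0.00124 for Rnf43 and 0.000348 for Znrf3. Glul was at 0.00645 without ZT0, Rnf43 at 0.0188 without ZT24, and Sp5 at -0.0147 with the length trend removed and at -0.00349 on the linear scale. Leaving out replicates gave -0.0257 to 0.0214 for Glul, -0.0902 to 0.0428 for Rnf43 and -0.0140 to 0.0331 for Sp5. The cause was not tested. The NRF rhythm of Rhbg passed on the deposited values (adjusted p = 0.0207), with the length trend removed (0.0226), by rank (0.0386) and without replicate 3 (0.0376). The DRF rhythm of Axin2 did not pass on the deposited values (0.0693), that of Lgr5 passed with the length trend removed (0.0454), and neither rhythm of Rnf43 passed without ZT0 (0.128 and 0.0648).

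Replicate numbers do not pair the livers. With a replicate block, 6 members were rhythmic under DRF, 7 under NRF, 6 differed in rhythm and 2 in daily mean, and 20, 16 and 0 calls were made at the same time, 12 h apart and between ZT24 and ZT0, as without the block. Of 56 libraries, 18 correlated best with their own number. Over all genes, 9525 and 9742 genes were rhythmic under DRF and NRF, against 14852 and 13416 with the length trend removed. Genes higher and lower in daily mean numbered 1031 and 680, against 903 and 314 on the deposited values, 436 and 310 without replicate 1 and 657 and 316 without replicate 3. Sp5 was not tested when a mean scaled count of at least 1 was required.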
